A study of Mus musculus with 6 samples.

Results

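The aryl hydrocarbon receptor (AHR) pathway was described here by 8 genes, found in the deposited count table by their gene names among 58735 genes in all. They were the receptor AHR, its dimerization partners ARNT and ARNT2, the repressor AHRR, the ADP-ribosyltransferase TIPARP and the cytochrome P450 genes CYP1A1, CYP1A2 and CYP1B1. The study asked what changes accompany acquired resistance to BL-B01D1, a bispecific antibody-drug conjugate that binds EGFR and HER3 and carries a camptothecin-derived topoisomerase I inhibitor. RNA-Seq of poly-A RNA covered 3 libraries of parental 22Rv1 cells, a human prostate cancer line, given vehicle, and 3 libraries of the resistant subline, 22Rv1 cells grown in gradually rising concentrations of BL-B01D1. Both groups share the 22Rv1 background, and the subline came from 1 selection of that line, so the spread between libraries did not cover a repeated selection and may be technical. Neither the labels nor the methods state whether the drug was in the medium at harvest.

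AHR is a ligand-activated transcription factor of the basic helix-loop-helix PAS family. Without a ligand it sits in the cytosol, bound to HSP90 and cochaperones such as p23. Planar aromatic chemicals, tryptophan metabolites and some drugs bind it and send it to the nucleus, where it joins ARNT on xenobiotic response elements and turns on CYP1A1, CYP1A2 and CYP1B1. AHRR and TIPARP are induced in the same way and act against the receptor, AHRR by competing for ARNT and TIPARP by ADP-ribosylation of AHR.

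Counts on genes totaled 13821639 to 17251491 per library, and 3 counts corresponded to 0.174 to 0.216 CPM (counts per 1000000 of the TMM-adjusted total). Replicate libraries differed by more than sampling noise (within a group, chi-square divided by its degrees of freedom was 1.69 to 2.25), so all were kept as separate samples. All 10 prostate luminal markers examined were detected in every library. At an FDR of less than 0.05, 6 of them were higher in resistant cells, among them KLK2, KLK3 and FOLH1, against 17.1% of all tested genes. HOXB13, KRT18 and EPCAM, 3 of the 10, were lower, against 18.4% of all tested genes. Of 12 markers of other cell types, 6 had at most 3 counts in any library, and the T cell marker CD3E was at 0 throughout. The summed level of those 12 markers was 461 to 480 CPM in parental libraries and 215 to 221 CPM in resistant libraries (ALB 310 and 90.6 CPM, SYP 103 and 106 CPM on average). Of these, 5 were tested, 3 fell (ALB, CHGA and COL1A1) and 0 rose. Mitochondrial transcripts took 4.19% to 4.21% of the counts in parental libraries and 5.10% to 5.35% in resistant libraries. The part of these differences in the results below was not tested.

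The genes of the pathway spanned a wide range of abundance. Levels are compared between genes as FPKM, that is, CPM per kilobase of the listed gene length. In parental cells ARNT was the most abundant at 13.4 ± 0.11 FPKM (SD, n = 3), at percentile 77.8 of the tested genes. TIPARP followed with 3.73 ± 0.42 FPKM and ARNT2 with 3.44 ± 0.27 FPKM, and the libraries of these neighbors in the order overlapped. The receptor itself stood at 2.34 ± 0.26 FPKM, at percentile 36.8. CYP1B1 had 1.14 ± 0.18 FPKM, CYP1A1 0.63 ± 0.037 FPKM, AHRR 0.36 ± 0.021 FPKM and CYP1A2 0.19 ± 0.078 FPKM. Apart from TIPARP and ARNT2, each neighbor in this order was separated from the next in all 3 parental libraries.

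In resistant cells the order changed at 1 place. ARNT2, at 2.01 ± 0.14 FPKM (SD, n = 3), stood under AHR, at 2.68 ± 0.17 FPKM, and the libraries of these 2 genes did not overlap. CYP1A1 averaged 1.23 ± 0.26 FPKM and CYP1B1 1.52 ± 0.097 FPKM. Their ranges overlapped, from 0.95 to 1.46 FPKM for CYP1A1 and from 1.41 to 1.61 FPKM for CYP1B1. Within each resistant library CYP1B1 stood above CYP1A1. ARNT remained the most abundant at 13.9 ± 0.38 FPKM, and CYP1A2 the least at 0.33 ± 0.12 FPKM.

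**Figure D1:**
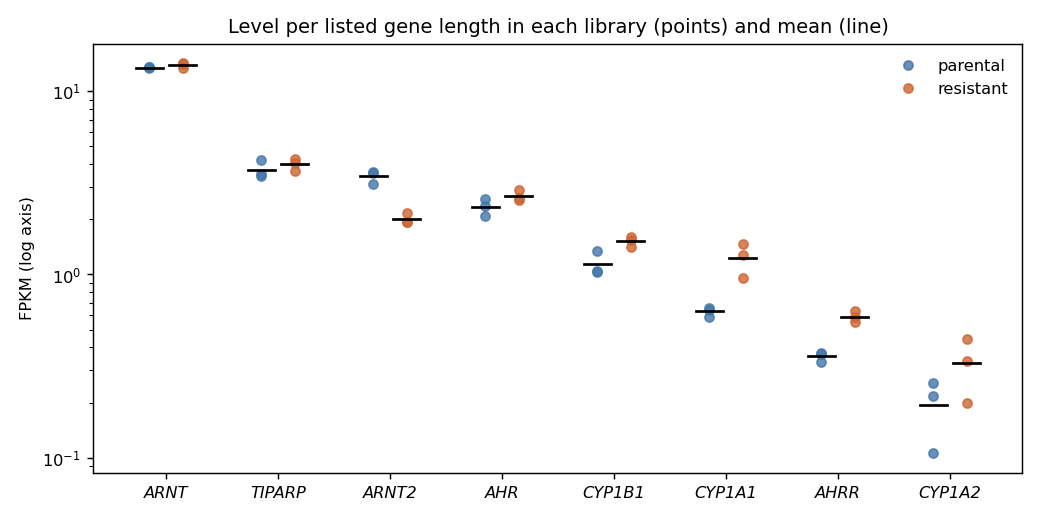
FPKM of the 8 genes on a log axis, ordered by the parental mean, with 1 point per library and a line at the mean of 3 libraries. ARNT stood near 13.4 FPKM in parental cells and CYP1A2 near 0.19 FPKM, and ARNT2 fell under AHR in resistant cells.

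Differences between the groups were tested for all 17142 genes with enough counts, and all 8 genes of the pathway were among them. With an FDR of less than 0.05 in edgeR's quasi-likelihood test, 3 of the 8 rose in resistant cells (AHRR, CYP1A1 and CYP1B1), against 17.1% of all tested genes. ARNT2 was the 1 gene of the pathway that fell, against 18.4% of all tested genes. The other 4 genes, AHR, ARNT, TIPARP and CYP1A2, did not pass. When an absolute log2 fold change greater than 1 was also required, as in the methods of the study, 0 of the 8 were called by edgeR, DESeq2 or limma-voom, against 5.37% of all tested genes by edgeR. An unadjusted p under 0.05 was found for 5 of the 8, against 43.4% of all tested genes. The median log2 fold change was 0.30 over the 8 genes and 0.0038 over all tested genes. The libraries of the groups did not overlap in CPM for 4 of the 8 genes, whereas this held for 44.8% of all tested genes.

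**Figure D2:**
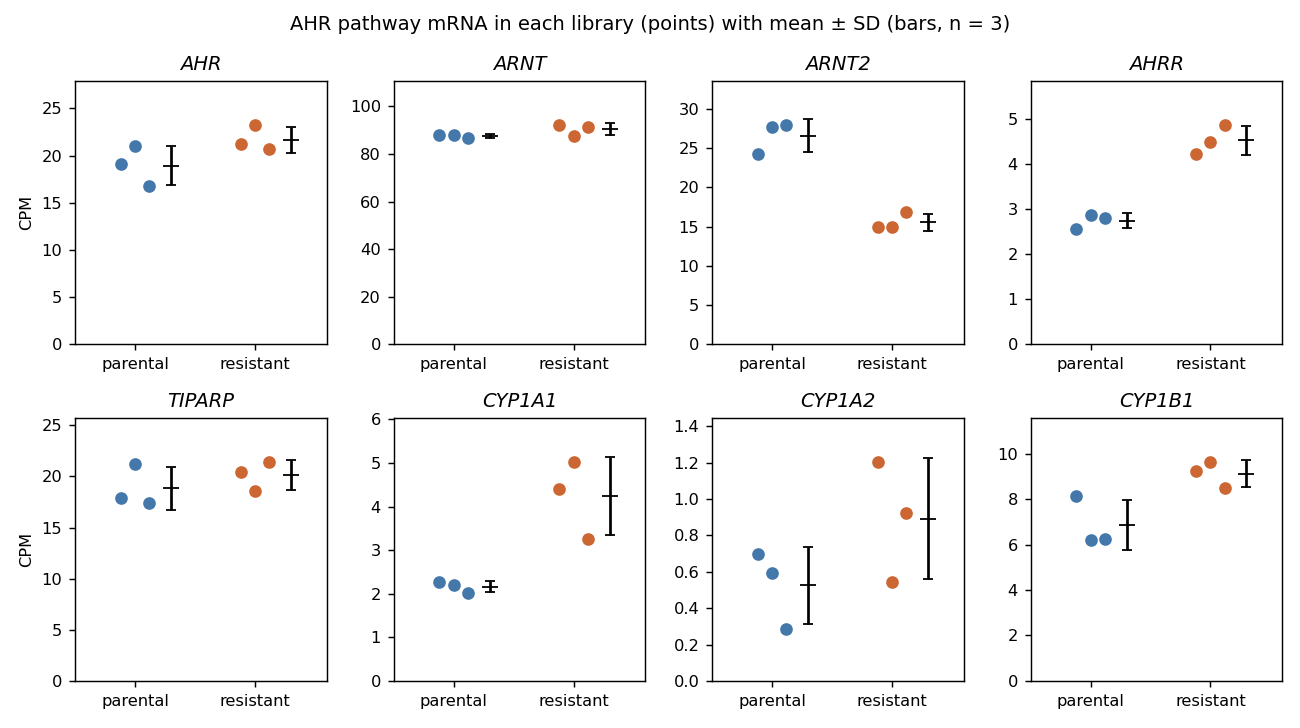
CPM of each gene in each library, with the linear axis of every panel starting at 0 and bars for mean ± SD of 3 libraries. The points of parental and resistant cells separate for ARNT2, AHRR, CYP1A1 and CYP1B1 and overlap for AHR, ARNT, TIPARP and CYP1A2.

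AHR (ENSG00000106546) is annotated on chromosome 7 (hg38, forward strand, 16916359 to 17346152). The receptor transcript measured 19.1, 21.0 and 16.8 CPM in parental libraries 1, 2 and 3 and 21.2, 23.3 and 20.6 CPM in resistant libraries 1, 2 and 3. Parental library 2 lay within the resistant range, so the groups overlapped. On the log2 scale the difference was 0.19 (SE 0.088, edgeR FDR 0.0940), with a 95% interval of 0.010 to 0.36. A rise of AHR by more than 1.29-fold was therefore outside the interval. Among the fits that left out 1 library, AHR passed the threshold only without parental library 2 (log2 fold change 0.27, FDR 0.0339 in edgeR).

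ARNT (ENSG00000143437), also known as HIF-1β, is a nuclear partner of AHR and of the hypoxia-inducible factors. It is annotated on chromosome 1 (reverse strand, 150809705 to 150876768). Its level was 87.8, 88.2 and 86.8 CPM in parental libraries and 92.2, 87.5 and 91.3 CPM in resistant libraries. The groups overlapped, with a log2 fold change of 0.04 (SE 0.043, FDR 0.461 in edgeR). The 95% interval ran from −0.042 to 0.13, the narrowest of the 8 genes, resting on 4200 counts in parental and 4297 counts in resistant libraries.

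ARNT2 (ENSG00000172379; chromosome 15, forward strand, 80404350 to 80597937) encodes a close relative of ARNT that can also pair with AHR and is best known from the nervous system. It fell to 0.59 of its parental level. Its mRNA measured 24.2, 27.6 and 28.0 CPM in parental libraries and 14.9, 14.9 and 16.8 CPM in resistant libraries. Every resistant library lay under every parental library. The log2 fold change was −0.77 (SE 0.086, FDR 9.49e-10 in edgeR), the lowest p of the 8 genes and at place 728 of 17142. With each library left out in turn it stayed between −0.84 and −0.74. The share of ARNT2 in the summed FPKM of ARNT and ARNT2 was 20.3% ± 1.33 (SD, n = 3) in parental cells and 12.6% ± 0.74 in resistant cells (two-sided exact permutation test, p = 0.1, which is the minimum for 3 libraries against 3).

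In bulk RNA, a change in the share of cells that express a gene and a change in its RNA per cell cannot be told apart. This applies to ARNT2 and to each gene that follows, whether it rose or fell.

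AHRR (ENSG00000063438; chromosome 5, forward strand, 304176 to 438291), the repressor, rose. It measured 2.55, 2.86 and 2.81 CPM in parental libraries and 4.22, 4.49 and 4.87 CPM in resistant libraries. The groups were apart, and the log2 fold change was 0.72 (SE 0.20, FDR 0.00299 in edgeR). The counts behind it were low, 131 in parental and 215 in resistant libraries. All fits that left out 1 library kept an FDR of less than 0.05, the highest being 0.0176. Relative to the receptor, the FPKM of AHRR was 15.3% ± 1.97 (SD, n = 3) of that of AHR in parental cells and 22.0% ± 2.43 in resistant cells, without overlap (two-sided exact permutation test, p = 0.1, the minimum).

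TIPARP (ENSG00000163659; chromosome 3, forward strand, 156673235 to 156706770), the other feedback gene, did not pass the test. It measured 17.9, 21.3 and 17.4 CPM in parental libraries and 20.4, 18.6 and 21.4 CPM in resistant libraries. The groups overlapped, and the log2 fold change was 0.09 (SE 0.090, FDR 0.451 in edgeR), with a 95% interval of −0.087 to 0.28. With 1 library left out it ranged from 0.045 (without parental library 3) to 0.19 (without parental library 2), and TIPARP passed in 0 of these fits.

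CYP1A1 (ENSG00000140465), the P450 enzyme most used as a readout of AHR activity, rose. It is annotated on chromosome 15 (reverse strand, 74719542 to 74725610). The transcript measured 2.26, 2.20 and 2.02 CPM in parental libraries and 4.40, 5.03 and 3.27 CPM in resistant libraries. Every resistant library exceeded every parental library, and resistant library 3 was the lowest of its group. The log2 fold change was 0.96 (SE 0.22, FDR 5.21e-04 in edgeR), or 1.94-fold with a 95% interval of 1.43-fold to 2.64-fold. Of all tested genes, 1039 had a larger absolute log2 fold change. Without resistant library 3 the value was 1.12, past the fold change threshold of the study, and CYP1A1 was then called. CYP1A1 had 104 counts in all parental and 200 in all resistant libraries.

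CYP1A2 (ENSG00000140505; chromosome 15, forward strand, 74748844 to 74756202), which in the body is mainly a liver enzyme, is the head-to-head neighbor of CYP1A1, with 23233 bases and 0 listed genes between them. It had 12, 10 and 4 counts in parental libraries and 20, 8 and 15 counts in resistant libraries. These correspond to 0.70, 0.60 and 0.29 CPM and to 1.21, 0.54 and 0.92 CPM. Resistant library 2 fell within the parental range. The log2 fold change was 0.73 (SE 0.44, FDR 0.209 in edgeR), with a 95% interval of −0.16 to 1.63, so that at this depth a change of the size of that of CYP1A1 was not distinguishable from no change. With 1 library left out the value ranged from 0.46 (without resistant library 1) to 0.98 (without parental library 1), it was 0.47 without parental library 3, and CYP1A2 passed in 0 of these fits. CYP1A1 and CYP1A2 are similar in sequence, and how reads matching both were counted is not stated, so the division between them is uncertain. Summed over both genes, parental cells had 2.69 ± 0.34 CPM (SD, n = 3) and resistant cells 5.13 ± 0.81 CPM, without overlap (two-sided exact permutation test, p = 0.1, the minimum).

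CYP1B1 (ENSG00000138061; chromosome 2, reverse strand, 38066973 to 38109902), an extrahepatic P450 that hydroxylates estrogens and is expressed in many tumors, was the most abundant of the CYP1 genes. It measured 8.12, 6.19 and 6.27 CPM in parental libraries and 9.23, 9.65 and 8.50 CPM in resistant libraries. Parental library 1 stood above the others of its group but under all resistant libraries. The log2 fold change was 0.40 (SE 0.14, FDR 0.0173 in edgeR), and this call was less stable than the others. It was lost without parental library 2 (0.33, FDR 0.0938), without parental library 3 (0.35, FDR 0.0737), without resistant library 2 (0.37, FDR 0.0681) and with DESeq2 on all libraries (0.41, FDR 0.0575). The summed level of the CYP1 genes was 9.55 ± 1.34 CPM (SD, n = 3) in the parental group and 14.3 ± 1.36 CPM in the resistant group, without overlap (two-sided exact permutation test, p = 0.1, the minimum). The share of CYP1A1 in their summed FPKM was 32.3% ± 2.78 and 39.8% ± 4.83 (p = 0.1 in the same exact test).

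**Figure D3:**
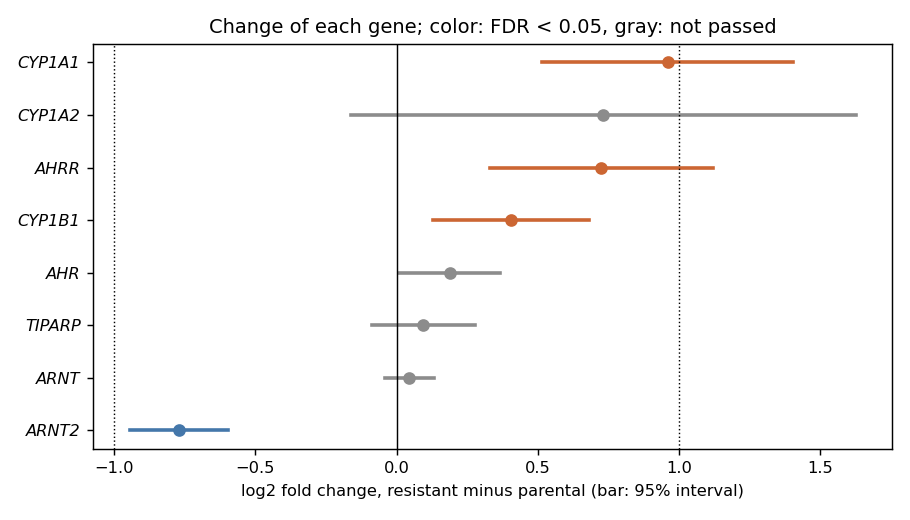
Log2 fold change (resistant minus parental) of each gene with its 95% interval, colored where the FDR is less than 0.05 and gray otherwise, with dotted lines at an absolute value of 1. ARNT2 lies at −0.77, CYP1A1 at 0.96 and AHRR at 0.72, and the interval of CYP1A2 is the widest.

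The call of CYP1A1, AHRR and ARNT2 at an FDR of less than 0.05 held in all 6 fits that left out 1 library. The fold change itself depended on how low counts were treated. With limma on log2(FPKM + 1), the log2 fold change was 0.45 for CYP1A1 and 0.23 for AHRR, since a constant of 1 FPKM is of the order of their level. For ARNT2 it was −0.56 in that setting.

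**Figure D4:**
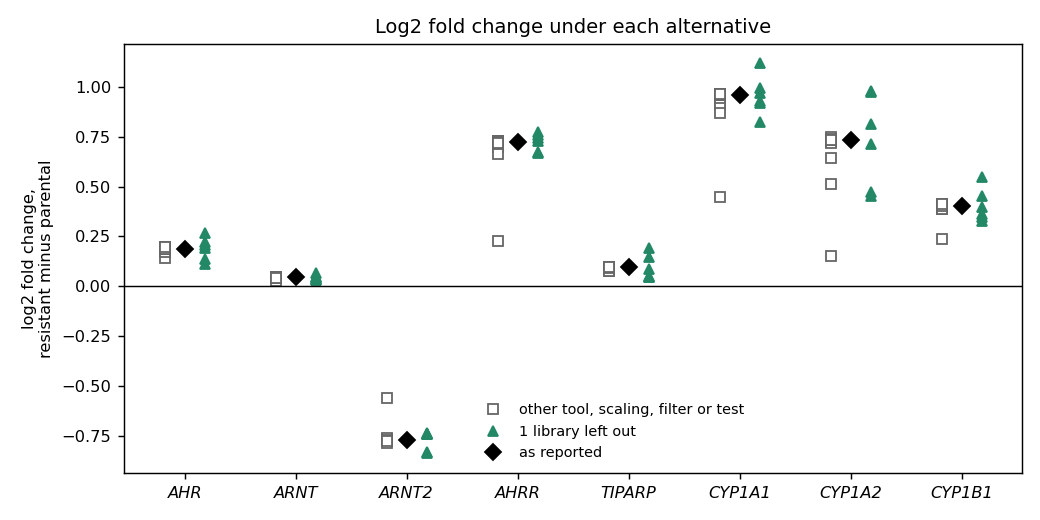
Log2 fold change of each gene as reported (diamonds), under 12 other settings (squares) and with 1 library left out (triangles). No gene changed sign in these fits, and the low squares of AHRR, CYP1A1, CYP1A2 and CYP1B1 are from limma on log2(FPKM + 1).

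Some genes of the table overlap the pathway genes, and the use of strand in counting is not stated. Of 17 overlapping genes, 13 had at most 5 counts in every library. PDCD6, which overlaps AHRR on the same strand and encodes a calcium-binding protein, had 1068 to 1450 counts per library, many more than AHRR, and a log2 fold change of 0.11 (FDR 0.0491 in edgeR). The antisense gene CYP1B1-AS1 had 8, 12 and 10 counts in parental libraries and 12, 26 and 12 in resistant libraries, with a log2 fold change of 0.75 (FDR 0.176). RMDN2 at the end of CYP1B1 (log2 fold change 0.12, FDR 0.749) and TIPARP-AS1 at the start of TIPARP (0.45, FDR 0.457) did not pass the test. Reads from these genes and from the pathway gene they overlap cannot be told apart where they share bases.

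Genes that act around the 8 were taken from lists. For comparison with the counts of each list, 17.1% of all tested genes rose and 18.4% fell at an FDR of less than 0.05. Of 4 genes of the cytosolic complex that holds AHR, 1 passed the test, HSP90AB1, with a log2 fold change of 0.05 (FDR 0.0423 in edgeR). HSP90AA1 had a log2 fold change of 0.05 (FDR 0.0898) and PTGES3, which encodes p23, one of −0.04 (FDR 0.251). The median of the list was 0.028.

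Among 16 coregulators and turnover factors of AHR, 3 rose, 1 fell and 12 did not pass, and their median log2 fold change was 0.0083. The shares over all tested genes were 17.1% higher and 18.4% lower. The p160 coactivator NCOA2 rose from 89.0 ± 2.90 CPM (SD, n = 3) to 138 ± 2.51 CPM, a log2 fold change of 0.63 (SE 0.040, FDR 5.88e-17 in edgeR). The chromatin remodeler SMARCA4 rose by 0.15 and DDB1, a subunit of CUL4 ubiquitin ligases, by 0.11 on the log2 scale. NCOA1, the relative of NCOA2, fell by 0.21 on the log2 scale. NCOA2 thus had the largest change of the list, and the other changes that passed were small.

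Other genes known to be induced by AHR, most of which respond to further transcription factors as well, went in both directions. Of 16 listed, 10 had enough counts to be tested. Of these, 2 were called higher and 3 lower, whereas 5.37% of all tested genes were called in either direction. The other 5 did not pass, and the median log2 fold change was −0.066. The drug transporter ABCG2 rose from 4.12 ± 0.74 CPM (SD, n = 3) to 438 ± 4.96 CPM, and NQO1, a quinone reductase also driven by NRF2, from 14.4 ± 0.23 CPM to 98.0 ± 2.46 CPM. SLC7A5, the amino acid transporter that also carries kynurenine, fell from 4838 ± 44.9 CPM to 505 ± 5.61 CPM. STC2, a secreted glycoprotein of the stress response, fell from 33.7 ± 0.77 CPM to 14.1 ± 1.09 CPM, and CYP2S1, another dioxin-inducible P450, from 1.05 ± 0.28 CPM to 0.38 ± 0.090 CPM. The log2 fold changes were 6.71, 2.76, −3.26, −1.26 and −1.47 in this order, with FDR in edgeR from 1.20e-51 for SLC7A5 to 0.00833 for CYP2S1. CYP2S1 rested on low counts, 51 in all parental and 18 in all resistant libraries. ABCG2 and SLC7A5 are genes that the study marked on these same libraries, so their direction is not independent evidence about the list. ALDH3A1, a classic AHR target, had 2 to 7 counts per library and was not tested.

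**Figure D5:**
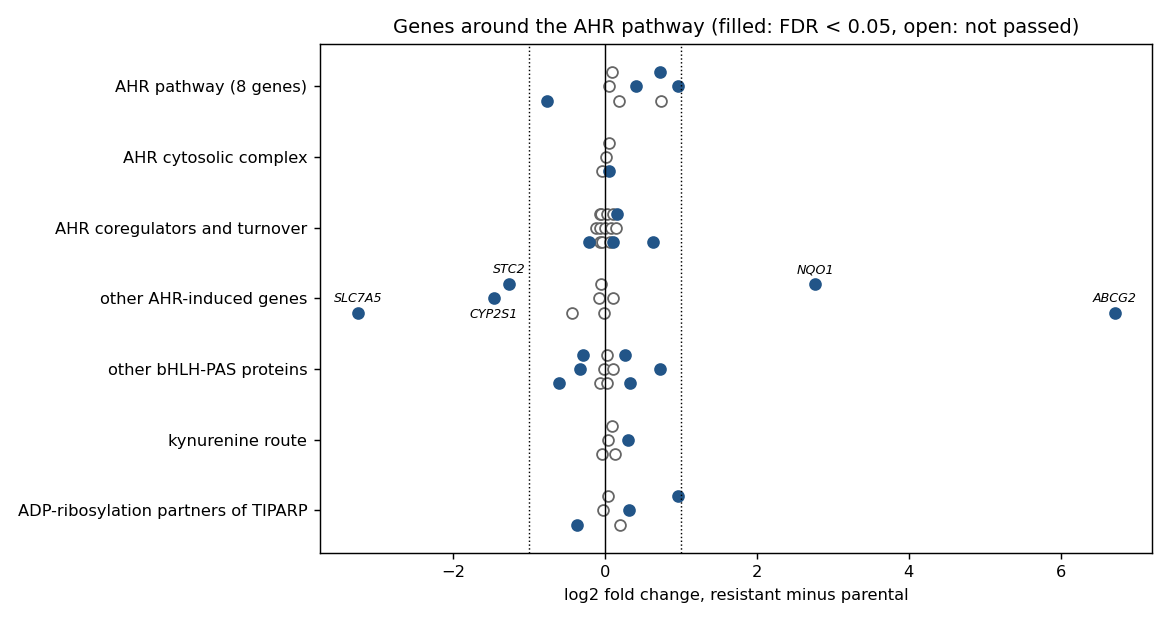
Log2 fold change (resistant minus parental) of the tested genes of each list, with 1 point per gene, filled where the FDR is less than 0.05, and dotted lines at an absolute value of 1. The 8 pathway genes stay within the dotted lines, whereas ABCG2 (6.71), NQO1 (2.76), STC2 (−1.26), CYP2S1 (−1.47) and SLC7A5 (−3.26) lie outside them.

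Of 15 other genes listed for the bHLH-PAS family, 11 were tested. Of these, 3 rose, 3 fell and 5 did not pass, with a median log2 fold change of 0.026. HIF1A, the hypoxia-inducible factor that competes for ARNT, rose from 126 ± 6.51 CPM (SD, n = 3) to 152 ± 2.40 CPM, a log2 fold change of 0.27 (SE 0.038, FDR 3.46e-07 in edgeR). CLOCK and BMAL1, the circadian activators that form a dimer, were with HIF1A the genes of lowest p in the list. CLOCK had a log2 fold change of −0.33 (FDR 6.70e-07) and BMAL1, listed in the table as ARNTL, one of 0.72 (FDR 4.68e-05).

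Endogenous AHR ligands arise from tryptophan through the kynurenine route. Of 12 genes of that route 5 were tested, and AADAT, a kynurenine aminotransferase, rose with a log2 fold change of 0.30 (FDR 0.0245 in edgeR). The other 4 did not pass, among them the aminotransferases KYAT3 (log2 fold change 0.09, FDR 0.479) and KYAT1 (−0.05, FDR 0.650), and the median was 0.092. IDO1 and TDO2, which open the kynurenine route, had 0 counts in every library, which allows up to 0.174 to 0.216 CPM.

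PARP9 and DTX3L form a complex that reads ADP-ribose marks such as those TIPARP places. All 6 genes listed with TIPARP were tested, 2 rose, 1 fell and 3 did not pass, with a median log2 fold change of 0.11. By the same rule 17.1% of all tested genes rose and 18.4% fell. PARP9 rose from 45.3 ± 5.20 CPM (SD, n = 3) to 87.6 ± 0.79 CPM, a log2 fold change of 0.96 (SE 0.057, FDR 1.19e-17 in edgeR), and DTX3L by 0.31 on the log2 scale (FDR 6.28e-08). MACROD1, a hydrolase that removes ADP-ribose, fell by 0.37 on the log2 scale (FDR 6.21e-06).

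Over the 6 libraries, the genes whose log2 CPM followed ARNT2 most closely were CCDC50, RUVBL2 and DOCK10, with Pearson's r of 0.998 for each. Those closest to AHR were the small nucleolar RNA SNORD88A, the pseudogene ALG1L9P and BDNF-AS, with Pearson's r of 0.997, 0.991 and 0.984. The 6 points come from 2 groups, so these values describe the libraries and largely follow the gap between the groups for ARNT2.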

How the data were processed

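RNA-Seq libraries were assigned to parental or resistant cells by their sample labels. The authors trimmed reads with fastp, mapped them to hg38 with HISAT2 (version 2.0.5), counted them per gene with featureCounts (version 1.5.0-p3, per the labels) and deposited raw counts with gene position and length. Annotation release, strand and filters are not given in the sources used here. The labels name mouse as the organism, but all 58735 gene identifiers are human, so human genes were assumed. No human sequence was used here, so a planned promoter motif search was not run. The number of per-sample columns not used was 0.

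From these counts, genes were filtered with filterByExpr, scaled with TMM and tested by the quasi-likelihood F test of edgeR (4.0.16, under R 4.3.3), with Benjamini-Hochberg adjustment over all 17142 genes tested. The standard error is the log2 fold change divided by the square root of F. FPKM used the listed gene length. The alternatives used DESeq2 (1.42.0) and limma (3.58.1). The code was tested on simulated data. Floors and intervals cover counting error only where they rest on counts alone.

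The members and lists were chosen with earlier results of these data known. Named genes are the 8 members, of each list the genes called or otherwise the 3 with the lowest p, genes overlapping a member (by number where at most 5 counts were found), and the 3 most alike in log2 CPM (prior count of 2) to AHR and to the member of lowest p. ALDH3A1, IDO1, TDO2 and NCOA1 were named after their values were seen, as were the markers. Some listed genes are not reported here.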

Additional observations from a re-analysis of the deposited data

How the results depend on the processing

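The log2 fold changes of the 8 genes kept their direction in all fits. Testing against an absolute log2 fold change of 1 (glmTreat) left 0 members higher and 0 lower: AHRR (0.72), ARNT2 (−0.77), CYP1A1 (0.96) and CYP1B1 (0.40) no longer passed, as that test asks for a larger change by construction. CYP1B1 also no longer passed with DESeq2 (0.41) and with limma on log2(FPKM + 1) (0.24, FDR 0.0626). With 1 library left out, CYP1B1 ranged from 0.33 to 0.55 and passed in 3 of 6 fits, AHR ranged from 0.11 to 0.27 and passed in 1, and the number of members called ranged from 0 to 1. Over the whole table, 434 genes were called higher and 487 lower, and these numbers were 116 and 64 with limma on log2(FPKM + 1), 248 and 287 with at least 10 counts in every library, and 178 and 144 with glmTreat. Of 233 values computed under the alternatives for the 8 genes and these numbers, 214 kept their direction and side of the threshold or stayed within 1.5 times; the cause of the other changes was not tested. Without TMM scaling, HSP90AB1 no longer passed and 3 of the listed coregulators were lower in place of 1. The 3 other bHLH-PAS genes called higher became 2 without TMM scaling and with the replicate block. Same-numbered libraries did not deviate together (correlation −0.020 to −0.0081), and with the replicate number as a block ARNT2 had a log2 fold change of −0.77, CYP1A1 0.96 and AHRR 0.72; the block changed no call of the 8 genes, and among the lists it also left 2 prostate luminal markers lower in place of 3. Depth limits CYP1A2 most, with 26 and 43 counts per group.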
